A study of Mus musculus with 10 samples.

Results

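The core autophagy genes of mouse haematopoietic stem cells were compared between control and Dhx16 knockout samples. They were taken by name among the protein-coding rows of the deposited table: the Atg genes with a number, Ulk1 and Ulk2, the Gabarap and Map1lc3 family, Wipi1 and Wipi2, Becn1, Rb1cc1, Sqstm1, Pik3c3 and Pik3r4. This gave 33 genes of 52097. The rule used names and no values, though earlier results of these data were known when it was chosen.

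The study sequenced RNA of stem cells from mouse bone marrow, sorted by flow cytometry at about 5000 cells a sample for lineage-negative, Sca-1+, c-Kit+, CD48- and CD150+ cells. The Smart-Seq V4 kit, made for very small RNA inputs, was used for the libraries. The 5 controls carry the title Dhx16_fl and the genotype label WT, and the 5 knockouts the title Dhx16_CKO and the genotype label KO. Dhx16 encodes an RNA helicase of the spliceosome. The labels give no treatment, no age or sex and no driver of the deletion, and the names of the controls point to a floxed allele that the label WT does not mention. Whether the samples of a group come from separate animals is not stated, and the p-values therefore speak for the spread between these samples, which may be technical. Library columns are called WT2 to WT6 and CKO7, CKO8, CKO9, CKO12 and CKO13, and values are printed in that order.

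Values are FPKM, which scale fragments by transcript length and sequencing depth, and a change is the difference of mean log2 (FPKM + 1), knockout minus control. Dhx16 itself measured 22.6, 20.5, 14.6, 15.5 and 14.3 FPKM in the control libraries and 10.9, 10.6, 8.8, 7.1 and 10.1 FPKM in the knockout libraries. Every knockout library lay below every control library, though none was near 0. The change was -0.81 ± 0.16 SE, adjusted p = 0.000638 with limma. The library columns summed to between 770789 and 966648 FPKM, and low genes that stand for single reads put 9 libraries within 0.961 and 1.5 times the depth of WT2, with no clear step in WT3. The sort and stem cell genes Kit, Ly6a, Slamf1, Procr, Hlf, Mecom and Fgd5 were detected in every library, as was Cd48, the gene of a surface protein on which cells were excluded. Their summed level, carried mostly by Kit and Ly6a, was 402 to 630 FPKM in control and 366 to 552 FPKM in knockout libraries, and 7 of the 8 were lower by mean in knockouts. Slamf1, the gene of the sort marker CD150, averaged 21.5 against 10.9 FPKM and Hlf 58.5 against 32.3 FPKM, both without overlap. Both were called lower by limma as deposited (changes -0.92 and -0.84, adjusted p = 0.000277 and 0.00018), as were Procr (-0.63) and Mecom (-0.70). In the authors' deposited DESeq2 results Slamf1 was also called lower (-0.50, adjusted p = 0.0153). Hlf (-0.39, adjusted p = 0.0697), Procr (-0.22, adjusted p = 0.372) and Mecom (-0.34, adjusted p = 0.197) were not called there.

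Genes of other blood and marrow cells were also present, and none of the lists was at 0 in all libraries. Summed FPKM of 8 erythroid genes ran from 120 to 397 in control and from 753 to 1177 in knockout libraries, with 8 of 8 higher by mean. Globin genes ran from 216 to 2863 and from 1214 to 8151. Sums over 6 megakaryocyte genes were 1431 to 2178 in control and 700.4 to 1382 in knockout libraries, and over 6 macrophage genes 117 to 272 and 10.6 to 27.5. Lymphocyte genes summed to 60.2 to 165 and 67.1 to 126. Bone matrix genes ran from 3180 to 65870 FPKM in control and from 4549 to 47778 FPKM in knockout libraries, highest in WT6, and granulocyte genes from 9623 to 74170 and from 8348 to 40842, highest in WT3. The part of these cells in the levels of autophagy genes was not tested, beyond a fit with the bone matrix and granulocyte scores as covariates given with the counts. In bulk samples, fewer cells of a type and less RNA per cell cannot be told apart.

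Macroautophagy wraps a portion of the cytoplasm, often a damaged organelle, in a double membrane that then fuses with the lysosome. A kinase complex built on ULK1 or ULK2 starts the process, a lipid kinase complex marks the membrane with PI3P, and ATG9 vesicles with ATG2 supply lipid. A pair of ubiquitin-like conjugation steps then attach LC3 and GABARAP proteins to the growing membrane, where cargo receptors such as p62, the product of Sqstm1, bind them. In haematopoietic stem cells, autophagy is known for clearing active mitochondria and for supporting long-term maintenance.

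Promoter letters were examined because transcription factors of the TFEB family, known regulators of autophagy and lysosome genes, bind E boxes with the letters CACGTG. Of the 33 genes, 26 had a promoter in the RefSeq table (build GRCm38.p6), and the 250 bases before each start were searched on both strands. Rb1cc1, Map1lc3a, Becn1, Pik3c3, Atg12, Atg16l1 and Atg4a-ps had no entry. CACGTG occurred before 3 of the 26 genes (11.5%), namely Atg3, Atg5 and Atg7, against 6.02% of all 32851 promoters. The first share is per gene and the second per promoter, and the 26 genes had 28 promoters. Atg3, Atg5 and Atg7 all act in the conjugation steps. GTAAACA, a site of forkhead FOXO factors, was found in 0 of the 26 and in 3.17%. A match describes letters and not binding. The windows of 100 bases that hold the matches are shown with the E box in capitals, 5′ to 3′ on the plus strand.
Atg3, chr16:45158699-45158798: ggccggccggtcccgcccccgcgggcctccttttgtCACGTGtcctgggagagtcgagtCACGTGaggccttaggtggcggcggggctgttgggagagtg
Atg5, chr10:44268239-44268338: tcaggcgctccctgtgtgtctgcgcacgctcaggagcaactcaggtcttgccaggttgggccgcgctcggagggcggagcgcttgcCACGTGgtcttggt
Atg7, chr6:114670917-114671016: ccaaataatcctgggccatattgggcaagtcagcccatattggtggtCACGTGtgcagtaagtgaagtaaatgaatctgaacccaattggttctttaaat
The Atg3 window holds 2 E boxes and covers bases -130 to -31 from its RefSeq start, of which 22 are exonic in GENCODE. The Atg5 window covers bases -100 to -1 and lies outside the GENCODE gene. In Atg7 the window covers bases -179 to -80 of its RefSeq start, inside the longer GENCODE gene, in no exon.

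The comparison of knockout with control asks how loss of Dhx16 goes with the RNA of these genes. The most abundant members in control libraries were Sqstm1, Map1lc3b, Gabarapl1 and Gabarap, at means of 224, 215, 199 and 173 FPKM. Gabarapl2, Map1lc3a, Becn1 and Atg101 followed at 76 to 64.4 FPKM. Ulk2 (3.34 FPKM) and Atg9b (1.13 FPKM) were the lowest apart from Atg4a-ps, a row typed protein-coding but named as a pseudogene, which ran from 0.04 to 0.24 FPKM and was not tested. Neighbours in this order often overlapped between libraries: Sqstm1 was first in 4 of the 5 control libraries, and Map1lc3b first in WT3.

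**Figure D1:**
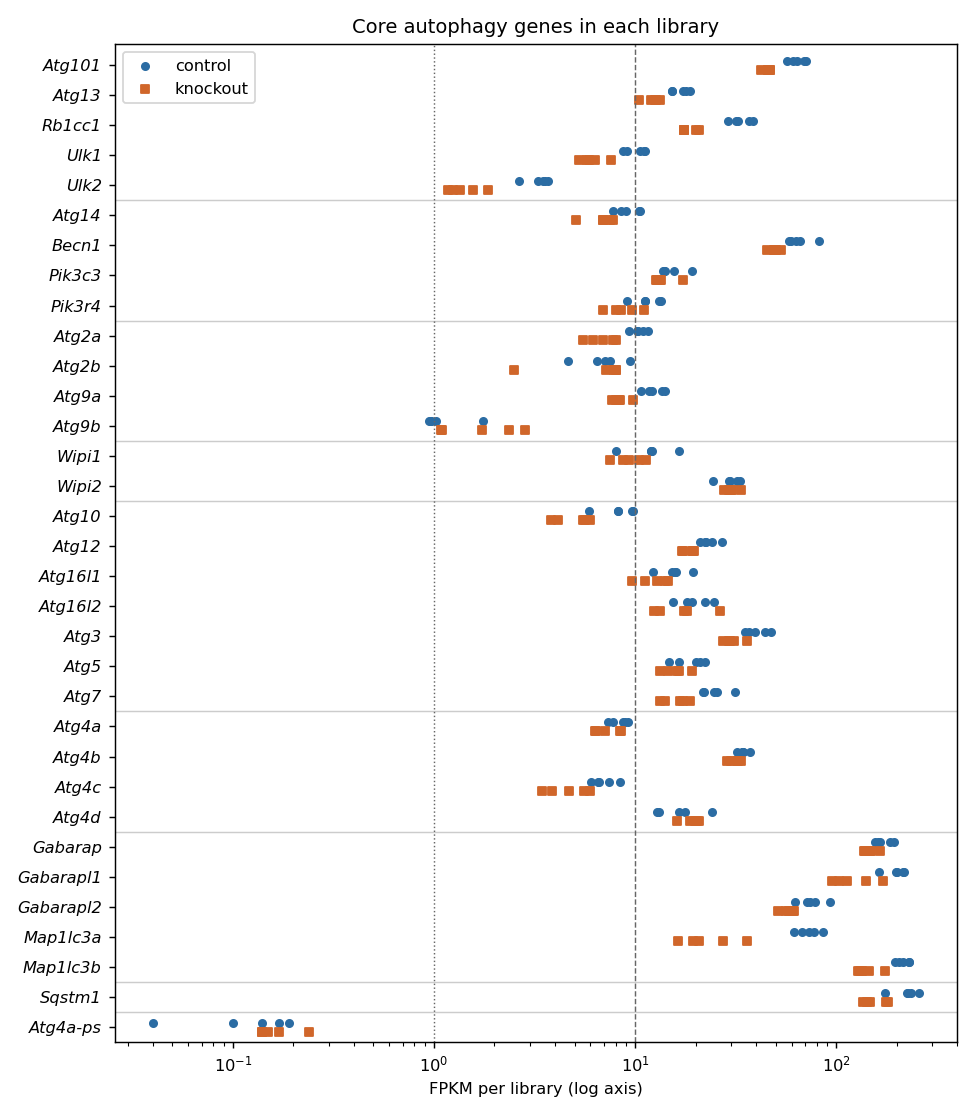
FPKM of the 33 core autophagy genes in each of the 10 libraries on a log axis, with control libraries as circles and knockout libraries as squares, grouped by role. The dashed and dotted lines mark the filters at 10 and 1 FPKM, and Map1lc3a shows the widest gap between the groups among the abundant genes.

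Of the 33 members, 23 reached 10 FPKM in at least 5 libraries and were tested in the main comparison by limma with Benjamini-Hochberg adjustment over all 6913 such genes. Called means an adjusted p under 0.05. In the FPKM as deposited, 13 of the 23 were called lower in knockout libraries (56.5%) and 0 were called higher, against 31.6% of all tested genes called lower and 21.1% called higher. The other 10 were not called, and 14 had an unadjusted p under 0.05. A wider fit over 13448 genes at 1 FPKM or more in at least 5 libraries tested 32 members and called 19 lower (59.4%) and 0 higher, against 36.4% lower and 13.4% higher among all genes. Values of members below the main filter come from this wider fit. Atg9a alone passed the main filter through control libraries only, so a member with its levels could enter the main comparison only as lower.

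Most of these calls depended on how libraries were scaled. The median change was -0.38 for the 23 members and -0.12 for all tested genes in the deposited FPKM, and -0.01 and 0.25 with median-of-ratios factors. With those factors 2 members were called lower (Map1lc3a and Rb1cc1; 11.8% of all genes) and 2 higher (Atg4d and Wipi2; 44.2% of all genes). In the wider fit these factors gave 3 lower calls (Map1lc3a, Rb1cc1 and Ulk2; 14.2% of all genes) and 3 higher ones (Atg4d, Atg9b and Wipi2; 28.1% of all genes). In the authors' deposited table of DESeq2 results, 3 of the 33 members were lower at an adjusted p under 0.05 (Map1lc3a, Rb1cc1 and Ulk2), 3 were higher (Atg4b, Atg4d and Atg9b) and 27 were not called. The backgrounds there were 11.5% lower and 17.1% higher over all genes with an adjusted p. Among genes past the filter of 10 FPKM they were 10% lower and 44.5% higher, and past that of 1 FPKM 14.5% and 29.4%. In the deposited scale 21 of the 23 members lay below the median of all tested genes and 22 of 32 in the wider fit, counts that a factor per library can hardly alter. By the fold changes of the authors' deposited table, 20 of the 23 and 20 of the 32 did. When bone matrix and granulocyte scores entered as covariates, 9 members were called lower and 0 higher, against 29.2% lower and 13.8% higher among all tested genes. The median change of the members was then -0.35, and Atg3 (-0.35), Atg12 (-0.35), Becn1 (-0.27) and Gabarapl2 (-0.36) were no longer called.

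In the deposited FPKM and without any model, 29 of the 33 members had a lower mean in knockout libraries and 4 a higher one. In 14 members every knockout library lay below every control library, and in 0 above. For these counts over all 33 members no share of all genes is given here. The median change of all genes in the wider fit was itself -0.26. Both counts rest on the deposited scale, and with median-of-ratios factors the changes of 11 of 32 members turned sign. Of the members given in full whose groups overlap, an exact permutation test over libraries (two-sided, smallest possible p = 0.00794) gave p = 0.0159 for Gabarapl1, 0.0238 for Sqstm1, 0.0397 for Atg4b, 0.0635 for Atg9b, 0.262 for Atg4d and 0.746 for Wipi2, unadjusted. Among the 23 tested members, 10 (43.5%) were lower without overlap and 0 higher. Of all genes past the same filter, 22.1% were lower and 12.9% higher without overlap. The coefficient of variation of the 23 had a median of 12.7% in control and 10.5% in knockout libraries. It was highest for Atg4d among controls (27.0%) and for Map1lc3a among knockouts (32.7%).

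**Figure D2:**
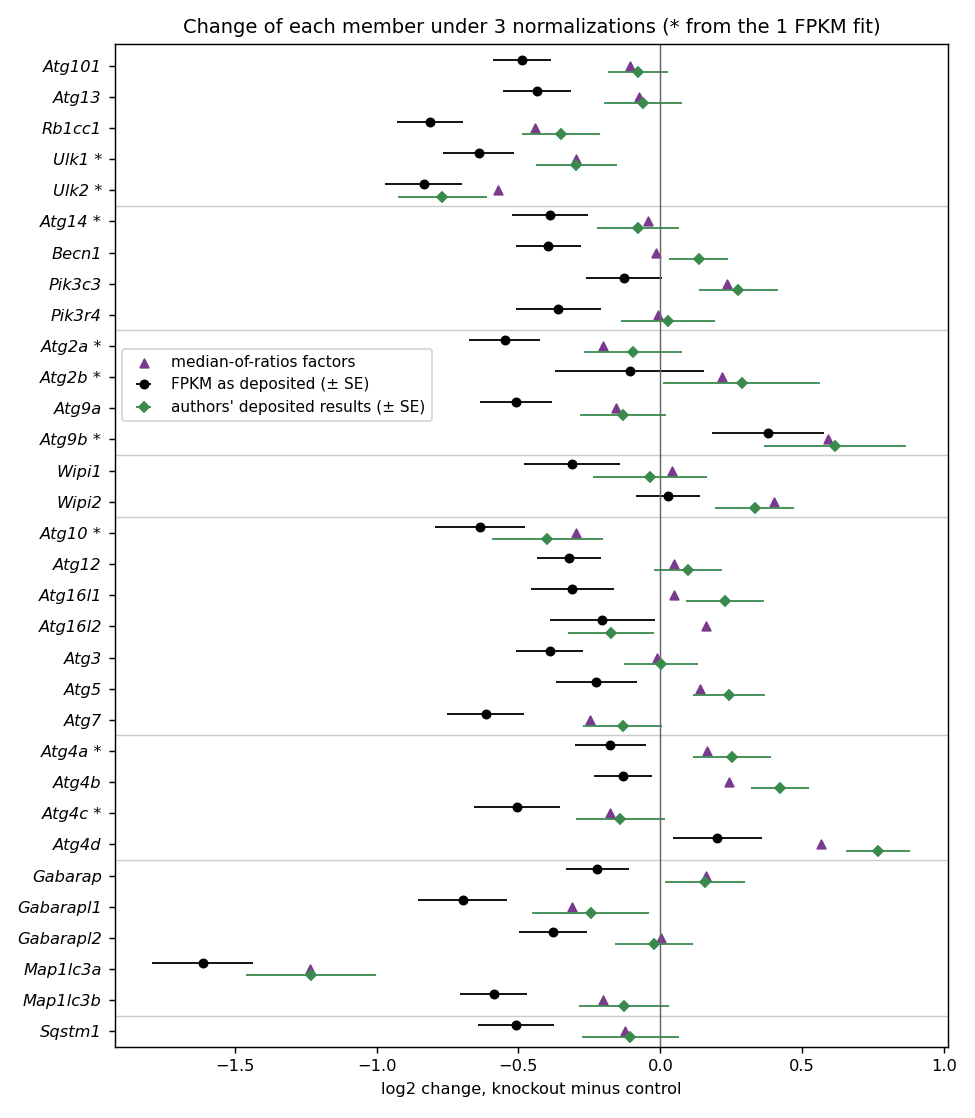
Log2 change, knockout minus control, of 32 members in the deposited FPKM (circles, ± SE), with median-of-ratios factors (triangles) and in the authors' deposited DESeq2 results (diamonds, ± SE), with an asterisk for members fitted at 1 FPKM. Map1lc3a, Rb1cc1 and Ulk2 were called lower in every series of points. Several others, among them Atg7 and Gabarapl1, also lie left of 0 in every series, and most points shift to the right of the deposited ones.

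The initiation kinase complex had 5 members, all below their control range in every knockout library. Of all genes past the filter of 10 FPKM, which Ulk1 and Ulk2 did not pass, 22.1% were lower without overlap. Rb1cc1 encodes FIP200, the scaffold of the complex (chromosome 1, 6206197 to 6276648, mm10). It measured 36.8, 32.4, 29.03, 38.5 and 31.7 FPKM in controls and 17.5, 20.2, 20.9, 17.4 and 17.6 FPKM in knockouts. The groups were well apart, with CKO9 the highest knockout at 20.9 FPKM and WT4 the lowest control at 29.03 FPKM. Rb1cc1 fell by 0.81 ± 0.12 on the log2 scale (SE, limma adjusted p = 5.32e-05), and it was also called lower with median-of-ratios factors (change -0.44, adjusted p = 0.0046) and in the authors' deposited table (-0.35, adjusted p = 0.0392).

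Ulk2 encodes one of the related ULK kinases (chromosome 11, 61775649 to 61855073). Its libraries held 3.5, 3.69, 3.29, 2.65 and 3.55 FPKM in controls and 1.17, 1.85, 1.34, 1.25 and 1.56 FPKM in knockouts. All 5 knockouts were below 2 FPKM and all controls above it. In the wider fit Ulk2 changed by -0.83 ± 0.13 SE, adjusted p = 0.000385, with median-of-ratios factors by -0.57 (adjusted p = 0.00263), and in the authors' deposited table by -0.77 (adjusted p = 1.22e-05). Ulk1, the more abundant kinase, averaged 10.2 ± 1.15 FPKM in controls and 6.17 ± 0.872 FPKM in knockouts. It was called lower in the wider fit (-0.64 ± 0.13 SE, adjusted p = 0.00129) but not with median-of-ratios factors (-0.30, adjusted p = 0.0579).

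Atg13 and Atg101 encode the partners that tie the kinase to FIP200. Atg101 averaged 64.4 ± 5.74 FPKM in controls and 45.6 ± 1.95 FPKM in knockouts, and Atg13 16.9 ± 1.59 FPKM in controls and 12.2 ± 1.1 FPKM in knockouts. Both were called lower as deposited (-0.49 and -0.44, limma adjusted p = 0.00105 and 0.00681), while with median-of-ratios factors their changes were -0.11 and -0.07, neither called, and with upper-quartile factors Atg13 turned to 0.03. Ratios within a library do not depend on the scaling. The ratio of Rb1cc1 to Atg13 FPKM was 1.998 ± 0.144 in control and 1.54 ± 0.119 in knockout libraries, with no overlap (1.83 to 2.16 and 1.39 to 1.69). The scaffold and Atg13 thus changed unequally in the same libraries.

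The lipid kinase complex makes PI3P at the forming membrane. Becn1 encodes Beclin 1, a core regulatory subunit. Its libraries held 59.9, 81.96, 58.3, 65.9 and 62.95 FPKM in controls and 45.1, 53.04, 50.2, 49.3 and 49.9 FPKM in knockouts. The groups did not overlap, with WT3 well above the other controls. Becn1 was called lower as deposited (-0.39 ± 0.11 SE, adjusted p = 0.0087), but its change was -0.01 with median-of-ratios factors, 0.09 with upper-quartile factors and 0.14 in the authors' deposited table. Pik3c3, the catalytic VPS34 subunit, averaged 15.3 ± 2.29 FPKM in controls and 13.9 ± 1.9 FPKM in knockouts and was not called (-0.13 ± 0.13 SE, adjusted p = 0.442).

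Pik3r4 encodes VPS15, the kinase-like subunit that anchors VPS34, and averaged 11.6 ± 1.75 FPKM in controls and 8.85 ± 1.56 FPKM in knockouts (-0.36 ± 0.15 SE, adjusted p = 0.0539). Atg14, whose product directs the complex to autophagosome sites, averaged 9.25 ± 1.21 FPKM in controls and 6.85 ± 1.03 FPKM in knockouts. The wider fit called Atg14 lower (-0.39 ± 0.13 SE, adjusted p = 0.0299), a call lost without WT4, WT5 or CKO8, with changes of -0.04 under median-of-ratios and 0.05 under upper-quartile factors. In the deposited scale 1 of the 3 members tested was called lower, near the 31.6% of all tested genes, and 2 of 4 in the wider fit, where 36.4% of all genes were.

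ATG9 proteins are scramblases of the vesicles that seed the membrane, and ATG2 proteins are bridges that pass lipid to it. Atg9a had 14.03, 13.5, 10.7, 12.2 and 11.7 FPKM in controls and 8.29, 8.44, 9.78, 7.66 and 8.02 FPKM in knockouts. All knockout libraries were below 10 FPKM and all controls above. The change was -0.51 ± 0.13 SE, adjusted p = 0.00355 as deposited and -0.16 (not called) with median-of-ratios factors. Its relative Atg9b (chromosome 5, 24384181 to 24392143) had 1.75, 0.94, 0.97, 1.02 and 0.97 FPKM in control and 1.09, 1.74, 2.85, 1.1 and 2.36 FPKM in knockouts. The 4 controls other than WT2 were below all knockouts, and WT2 lay among them.

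As deposited, Atg9b was not called by limma (0.38 ± 0.20 SE, adjusted p = 0.126). It was called higher with median-of-ratios factors (0.59, adjusted p = 0.0193) and in the authors' deposited table (0.62, adjusted p = 0.0489). The ratio of Atg9b to Atg9a FPKM was 0.0902 ± 0.0208 in control and 0.213 ± 0.0779 in knockout libraries, and the groups did not overlap (0.0694 to 0.125 and 0.132 to 0.294). Atg9b overlaps Nos3 on the other strand, and the strand setting of the counting was not given in the sources used here. Atg2a averaged 10.5 ± 0.854 FPKM in controls and 6.88 ± 1.08 FPKM in knockouts and was called lower in the wider fit (-0.55 ± 0.12 SE, adjusted p = 0.00323), but not with median-of-ratios factors (-0.20). Atg2b averaged 7.01 ± 1.72 FPKM in controls and 6.71 ± 2.38 FPKM in knockouts and was not called (-0.11 ± 0.26 SE, adjusted p = 0.749), and without CKO12, whose 2.5 FPKM was far below the other knockouts, its change was 0.16.

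WIPI proteins read PI3P and recruit the conjugation machinery. Wipi2 had 32.1, 29.2, 24.4, 33.2 and 29.8 FPKM in controls and 29.4, 29.8, 33.8, 27.8 and 30.2 FPKM in knockouts. The groups overlapped almost fully. Its change was 0.03 ± 0.11 SE, adjusted p = 0.856 as deposited, while with median-of-ratios factors it was called higher (0.40, adjusted p = 0.00825) and in the authors' deposited table it was 0.33 (adjusted p = 0.061). Wipi1 averaged 12.1 ± 3.01 FPKM in controls and 9.46 ± 1.51 FPKM in knockouts and was not called under any of the 6 scalings (-0.31 ± 0.17 SE, adjusted p = 0.136 as deposited).

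The conjugation group had 7 members, of which 3 of 6 tested were called lower as deposited and 0 with median-of-ratios factors. Of all tested genes, 31.6% and 11.8% were called lower in these 2 scales. Atg7 encodes the E1-like enzyme that activates both ATG12 and the LC3 proteins. It measured 24.7, 31.6, 21.97, 25.7 and 21.8 FPKM in controls and 16.7, 18.8, 17.3, 14.01 and 13.4 FPKM in knockouts. The highest knockout, CKO8, stayed below the lowest control, WT6. The change was -0.62 ± 0.14 SE, adjusted p = 0.00149 as deposited, -0.25 with median-of-ratios factors (adjusted p = 0.144) and -0.13 in the authors' deposited table (adjusted p = 0.516).

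Atg3 encodes the E2-like enzyme for LC3, and Atg10 that for ATG12. Atg3 averaged 40.6 ± 5.18 FPKM in controls and 30.7 ± 3.21 FPKM in knockouts, called lower as deposited (-0.39 ± 0.12 SE, adjusted p = 0.0122) with changes of -0.01 under median-of-ratios and 0.09 under upper-quartile factors. Atg10 averaged 8.35 ± 1.54 FPKM in controls and 5.02 ± 0.975 FPKM in knockouts and was called lower in the wider fit (-0.63 ± 0.16 SE, adjusted p = 0.00561; -0.30 with median-of-ratios factors, not called). Atg12, the ubiquitin-like protein itself, averaged 23.4 ± 2.31 FPKM in controls and 18.5 ± 1.25 FPKM in knockouts. It was called lower as deposited (-0.32 ± 0.11 SE, adjusted p = 0.0247) but not without WT4, CKO7 or CKO13, and its change was 0.05 with median-of-ratios factors.

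Atg5, the acceptor of ATG12, averaged 18.9 ± 3.16 FPKM in controls and 15.97 ± 2.29 FPKM in knockouts and was not called under any scaling (-0.23 ± 0.14 SE, adjusted p = 0.194 as deposited). Atg16l1, which places the ATG12-ATG5 conjugate on the membrane, averaged 15.7 ± 2.52 FPKM in controls and 12.5 ± 2.03 FPKM in knockouts, and its relative Atg16l2 19.96 ± 3.65 FPKM in controls and 17.6 ± 5.56 FPKM in knockouts. Neither was called as deposited (-0.31 and -0.20, limma adjusted p = 0.0861 and 0.371). Of the 3 genes with an E box, Atg3 and Atg7 were called lower as deposited and Atg5 was not.

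ATG4 proteases trim LC3 and GABARAP before conjugation and release them afterwards. The authors' deposited results called 2 of the 4 members higher, Atg4b and Atg4d. Of all genes in those results, 29.4% past the filter of 1 FPKM and 44.5% past that of 10 FPKM were called higher. With 4 genes, the count does not set this group apart from that background. Atg4d (chromosome 9, 21265293 to 21277772) measured 12.9, 24.1, 13.2, 16.6 and 17.7 FPKM in controls and 19.9, 20.7, 20.4, 16.2 and 18.7 FPKM in knockouts. The highest value was a control, WT3, and the other 4 controls ranged from below to within the knockouts. The change was 0.20 ± 0.16 SE, adjusted p = 0.298 as deposited, 0.57 with median-of-ratios factors (adjusted p = 0.0118) and 0.77 in the authors' deposited table (adjusted p = 4.10e-10).

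Atg4b (chromosome 1, 93751500 to 93790610), the member of the group with the highest FPKM, had 33.9, 34.5, 32.1, 34.6 and 37.5 FPKM in controls and 29.9, 28.8, 32.5, 32.2 and 33.6 FPKM in knockouts. The groups overlapped and the FPKM means ran the other way than the authors' value. The change was -0.13 ± 0.10 SE, adjusted p = 0.288 as deposited, 0.24 with median-of-ratios factors (not called) and 0.42 in the authors' deposited table (adjusted p = 0.00032). Atg4b overlaps Thap4 and Atg4d overlaps Kri1, each on the opposite strand, so their reads may not be separate. Rb1cc1, Becn1, Atg9a, Map1lc3b, Gabarapl1 and Sqstm1 also overlap a gene on the other strand, as do Atg10, Atg14, Atg16l2, Atg2b, Pik3r4 and Atg4a-ps. Atg4a averaged 8.4 ± 0.798 FPKM in controls and 7.35 ± 1.07 FPKM in knockouts (-0.18 ± 0.12 SE, adjusted p = 0.254). Atg4c averaged 7.01 ± 0.922 FPKM in controls and 4.69 ± 1.06 FPKM in knockouts, without overlap between groups, and was called lower in the wider fit (-0.51 ± 0.15 SE, adjusted p = 0.0145) but not with median-of-ratios factors (-0.18).

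**Figure D3:**
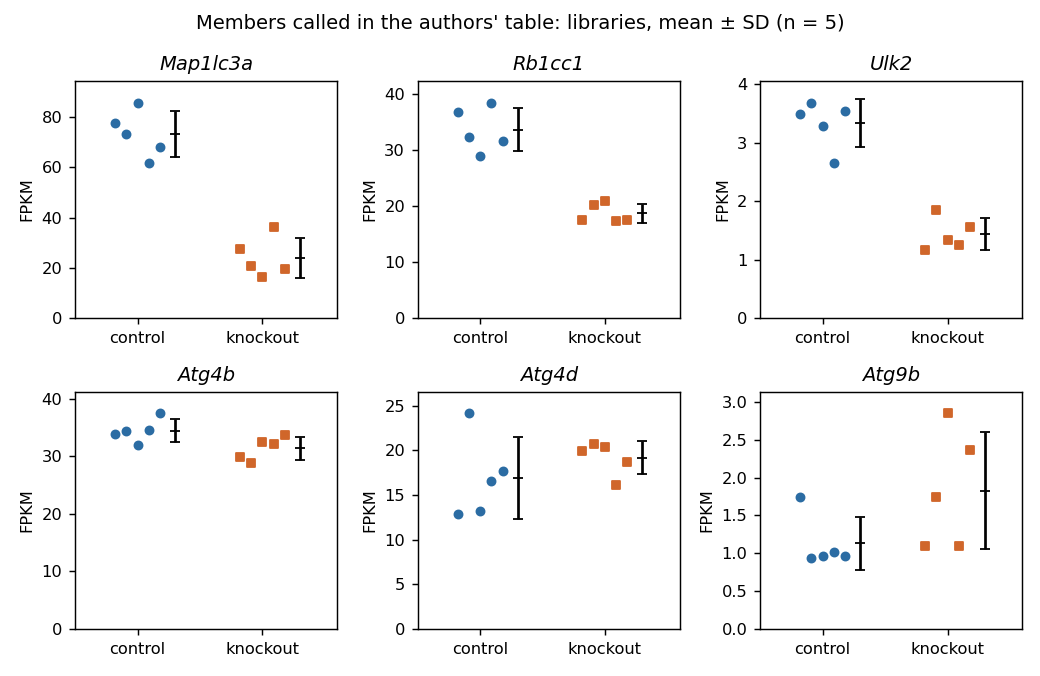
FPKM in the 5 control and 5 knockout libraries, with mean ± SD, of the 6 members called in the authors' deposited table. Map1lc3a, Rb1cc1 and Ulk2 are separated between the groups, whereas Atg4b, Atg4d and Atg9b, called higher in that table, overlap in FPKM.

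The LC3 and GABARAP genes encode the small proteins that are joined to the membrane. Map1lc3a (chromosome 2, 155276297 to 155278073) had the largest change of the 32 members in the deposited scale. Its libraries held 77.5, 73.2, 85.7, 61.7 and 67.9 FPKM in controls and 27.3, 20.8, 16.3, 36.1 and 19.5 FPKM in knockouts. The highest knockout, CKO12, was well below the lowest control, WT5, and the groups were far apart. Map1lc3a averaged 73.2 ± 9.15 FPKM in controls and 24.02 ± 7.85 FPKM in knockouts, and it fell by 1.61 ± 0.18 on the log2 scale (SE, limma adjusted p = 9.47e-06). With median-of-ratios factors the change was -1.23 (adjusted p = 0.000306), and in the authors' deposited table -1.23 (adjusted p = 1.02e-06). By mean FPKM it stood at rank 6 of the 33 members in control and rank 11 in knockout libraries.

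Map1lc3b, the main LC3 gene here, had 214, 206, 229, 229 and 196 FPKM in controls and 145, 132, 135, 176 and 129 FPKM in knockouts. The groups did not overlap, and CKO12 was again the highest knockout. It was called lower as deposited (-0.59 ± 0.12 SE, adjusted p = 0.000774), but its change with median-of-ratios factors was -0.20 (adjusted p = 0.228). The ratio of Map1lc3a to Map1lc3b FPKM, which no scaling alters, was 0.342 ± 0.0418 in control and 0.165 ± 0.033 in knockout libraries. No knockout library reached the control range of 0.27 to 0.37.

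Gabarapl1 had 198, 164, 214, 218 and 202 FPKM in controls and 141, 103, 113, 172 and 95.3 FPKM in knockouts. CKO12 lay above the lowest control, WT3, and the other knockouts below all controls. The change was -0.70 ± 0.16 SE, adjusted p = 0.00173 as deposited and -0.31 (adjusted p = 0.176) with median-of-ratios factors. Gabarapl2 averaged 76.02 ± 11.3 FPKM in controls and 57.9 ± 4.19 FPKM in knockouts, was called lower as deposited (-0.38 ± 0.12 SE, adjusted p = 0.0141) and changed by 0.0029 with median-of-ratios factors. Gabarap averaged 173 ± 16.4 FPKM in controls and 148 ± 10.9 FPKM in knockouts and was not called (-0.22 ± 0.11 SE, adjusted p = 0.105), with 0.16 under median-of-ratios factors.

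The 5 genes together summed to 736 ± 49.6 FPKM in control and 498 ± 66.4 FPKM in knockouts. Their shares within a library do not depend on the scaling. Map1lc3a made up 9.94 ± 0.99% of the family in control and 4.75 ± 0.96% in knockout libraries, and Gabarap 23.5 ± 1.79% and 29.9 ± 2.45%. Neither share overlapped between groups: Map1lc3a held 8.27 to 10.8% against 3.46 to 5.92%, and Gabarap 21.7 to 26.3% against 27.0 to 31.7%. Map1lc3b held 29.2 ± 1.08% and 28.8 ± 0.36%, Gabarapl1 27.1 ± 2.54% and 24.8 ± 3.17%, and Gabarapl2 10.3 ± 0.998% and 11.8 ± 1.54%, all with overlap.

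**Figure D4:**
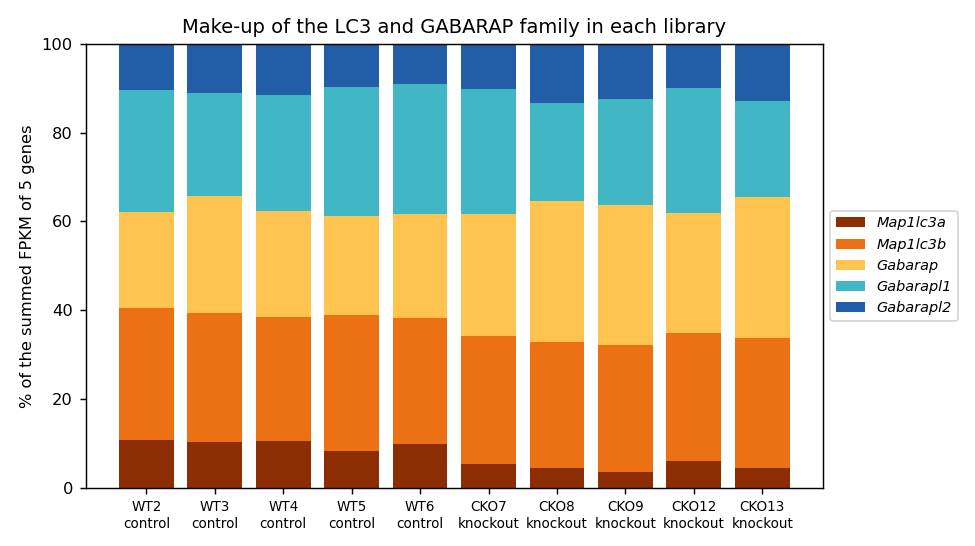
Share of each LC3 and GABARAP gene in the summed FPKM of the 5 genes, as stacked bars for each library. The Map1lc3a part is at most 5.92% in knockout and at least 8.27% in control libraries, and the Gabarap part is larger in every knockout library.

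Sqstm1 encodes p62, a receptor that links ubiquitinated cargo to LC3 and is itself degraded by autophagy. Its libraries held 224, 175, 235, 259 and 228 FPKM in controls and 176, 136, 148, 182 and 142 FPKM in knockouts. CKO7 and CKO12 lay just above the lowest control, WT3, and the other controls were above all knockouts. Sqstm1 was called lower as deposited (-0.51 ± 0.13 SE, adjusted p = 0.00498), with a change of -0.12 (adjusted p = 0.516) under median-of-ratios factors. It remained the most abundant member by mean in knockout libraries, at 157 FPKM.

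Other genes of the pathway were counted in 4 lists with 66 genes, of which 48 were tested. As deposited, 2 of these were called higher and 23 lower, against 21.1% and 31.6% of all tested genes. With median-of-ratios factors 17 were called higher and 8 lower, against 44.2% and 11.8%. Cargo receptors and mitophagy genes had 12 of 19 called lower and 1 higher as deposited (median change -0.35), and 6 lower and 3 higher with median-of-ratios factors. Phb2, an inner mitochondrial membrane protein that LC3 can bind, rose from 139 to 367 FPKM by mean (1.40 ± 0.12 SE, adjusted p = 1.70e-06). Pink1, the kinase that marks damaged mitochondria, fell from 70.1 to 29.6 FPKM (-1.27 ± 0.23 SE, adjusted p = 0.000626). Ccpg1, a receptor for the endoplasmic reticulum, and Calcoco1, a relative of the receptor NDP52, were called lower with changes of -1.05 and -1.02. With median-of-ratios factors Phb2 changed by 1.78, Pink1 by -0.89, Ccpg1 by -0.67 and Calcoco1 by -0.65, each still called.

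The list of regulators upstream of autophagy held mainly AMPK, mTORC1 and TFEB and FOXO genes. Of 12 tested, 4 were called lower, a share near that of all tested genes, and 1 higher (median change -0.13). With median-of-ratios factors 1 was called lower and 5 higher. Tfeb, Mitf, Foxo1, Foxo3, Prkaa2 and Prkab2 did not pass the filter of 10 FPKM and are not among these 12. The wider fit as deposited called 11 of the 21 listed genes lower and 1 higher, against 36.4% and 13.4% of all genes. The authors' deposited results had 5 of the 21 lower (Prkab2, Prkaa2, Mitf, Foxo1 and Foxo3) and 5 higher. Of all genes past 1 FPKM, 14.5% were lower and 29.4% higher there. Prkag1, a regulatory subunit of AMPK, rose from 57.3 to 80.2 FPKM (0.48 ± 0.09 SE, adjusted p = 0.000688; 0.86 with median-of-ratios factors). Deptor, an mTOR inhibitor, Stk11, the LKB1 kinase upstream of AMPK, and Akt1s1, an mTORC1 inhibitor, were called lower as deposited with changes of -0.80, -0.68 and -0.55. With median-of-ratios factors these were -0.44, -0.31 and -0.18, and only Deptor was called among these 3.

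Partners of the lipid kinase and the early membrane had 3 of 6 called lower and 0 higher (median change -0.30), and 0 lower and 3 higher with median-of-ratios factors. The called genes were Vmp1, a scramblase of the endoplasmic reticulum, Bcl2, which can bind Beclin 1, and Uvrag, an alternative Beclin 1 partner, with changes of -0.81, -0.61 and -0.58 as deposited and -0.43, -0.25 and -0.22 with median-of-ratios factors. Genes for fusion with the lysosome had 4 of 11 called lower, also near the 31.6% of all tested genes, and 0 higher (median change 0.01), and 1 lower and 6 higher with median-of-ratios factors. Tecpr1, an autophagosome tethering factor, fell from 12.9 to 5.26 FPKM (-1.15 ± 0.15 SE, adjusted p = 2.89e-05; -0.80 with median-of-ratios factors, still called). Vps39, of the HOPS tether, and Stx17, the SNARE of the autophagosome, were called lower with changes of -0.59 and -0.54, which were -0.23 and -0.17 and not called with median-of-ratios factors.

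**Figure D5:**
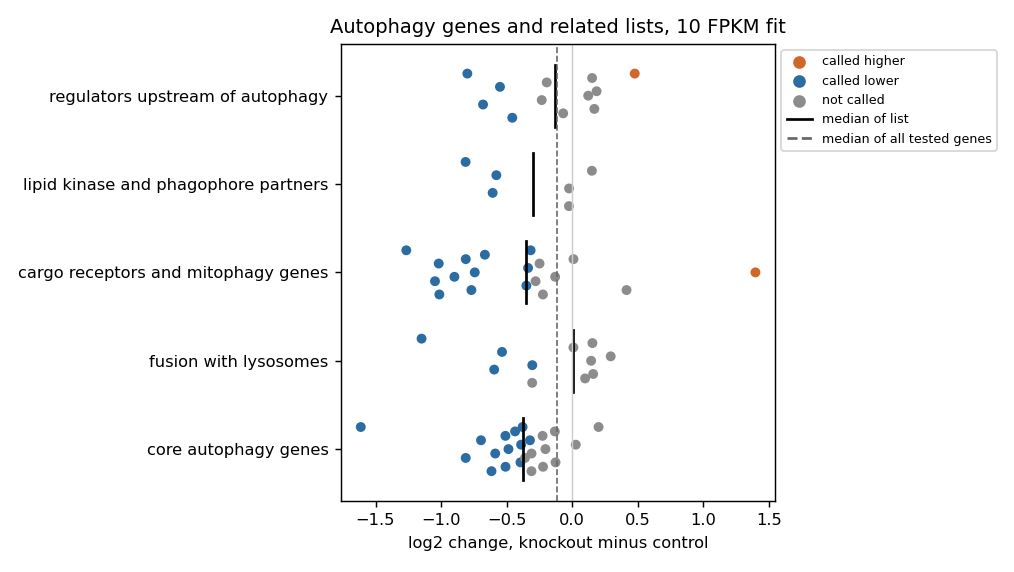
Log2 change, knockout minus control, of each tested gene in the 4 related lists and of the 23 tested core autophagy genes, in the deposited FPKM, with list medians as solid marks and the median of all tested genes, -0.12, as a dashed line. The core genes have a median of -0.38 and no gene called higher, and Phb2 and Pink1 are the extremes of the cargo receptor list.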

How the data were processed

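RNA of sorted haematopoietic stem cells was measured in 5 control and 5 Dhx16 knockout samples. Per the submitters' processing notes the tools were Bowtie 0.12.9, Cufflinks 2.1.1 and HTSeq with the mm10 build; which tool made which value, and the strand setting, is not given in the sources used here. The library columns the authors deposited are taken as FPKM, a unit inferred from the values since the header names none. Per the file headers, the authors also deposited columns laid out as DESeq2 results, the tool named in the table's name: mean normalized counts (a signal), log2 fold changes with standard errors, a Wald score, and p-values with adjusted p-values. Columns matched groups by name but not titled samples. Read counts per library were not used here, so absolute depth is unknown and no counting interval is given.

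Members and lists were chosen with earlier results of these data known, and the ratios after their values were seen. Genes reaching 10 FPKM in at least 5 libraries were tested on log2 (FPKM + 1), a scale that understates changes of low genes, with limma 3.58.1 in R 4.3.3 (trend and robust options, genotype as the only term, Benjamini-Hochberg adjustment, threshold 0.05), and the fit was tested on simulated data. A second fit at 1 FPKM, chosen after seeing the data, covered lower members. Alternatives were pseudocounts of 0.1 and 0.5, filters, scalings, limma options, marker covariates, each library left out in turn, and the authors' results. Named were every member, Dhx16, and of each pathway list at most the 3 called genes with the largest rise and the 3 with the largest fall. Some regulators upstream of autophagy that did not pass the main filter were named as well. Promoters came from RefSeq (GRCm38.p6), and gene positions and exons from GENCODE for mm10.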

Additional observations from a re-analysis of the deposited data

Results flagged for a closer look

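In 3 of 68 groups of 5 libraries of 1 gene, 1 library stood apart from the other 4 by Dixon's criterion, a number near the 5% that chance gives. Atg2b was 2.5 FPKM in CKO12, the lowest knockout library, with the nearest other knockout at 7.13 FPKM. Atg9b was 1.75 FPKM in WT2, the highest control library, with the nearest other control at 1.02 FPKM. Pik3c3 was 17.28 FPKM in CKO9, the highest knockout library, with the nearest other knockout at 13.45 FPKM.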

How the results depend on the processing

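The scaling of libraries moved the results most, and depth and the FPKM unit could not be checked on counts per library. Of the tested members, upper-quartile factors called 4 higher and 2 lower, median-of-ratios factors 2 and 2, scaling to the authors' fold changes 3 and 2, and the authors' deposited results 2 and 2, against 0 and 13 as deposited and 0 and 16 with equal totals. Of all tested genes, the shares higher and lower were 51.5% and 8.42%, 44.2% and 11.8%, 44.8% and 10.8%, 44.5% and 10%, 21.1% and 31.6%, and 15.3% and 38.7%, in that order. For the pathway lists, at 2 higher and 23 lower as deposited, these settings called 18 and 6, 17 and 8, 17 and 7, and 16 and 7. Library quality weights called 4 of them higher, against 27.5% of all tested genes. The cause was not tested beyond the construction of each scale. In the wider fit, upper-quartile factors called 5 members higher and 3 lower (33.2% and 10.4% of all genes). Median-of-ratios factors called 3 and 3 (28.1% and 14.2%), and scaling to the authors' fold changes 4 and 3 (28.3% and 12.8%). The authors' deposited results had 3 and 3 (29.4% and 14.5%), against 0 and 19 as deposited (13.4% and 36.4%). A filter of 20 FPKM, which tests 14 members, called 0 higher and 11 lower (27.6% and 27.4% of all genes). Upper-quartile factors over tested genes only, chosen after seeing the data, called 0 higher and 15 lower in the main comparison (23.1% and 35.3%).

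Counting members called as deposited or in the setting named, changes turned from below to above 0 with upper-quartile factors in Atg12 (0.15), Atg13 (0.027), Atg14 (0.051), Atg3 (0.091), Atg4b (0.35), Becn1 (0.091), Gabarapl2 (0.11) and Pik3c3 (0.34). Median-of-ratios factors turned Atg12 (0.047) and Gabarapl2 (0.0029). Scaling to the authors' fold changes turned Atg12 (0.079), Atg3 (0.019), Atg4b (0.28), Becn1 (0.018) and Gabarapl2 (0.035). In the same sense the authors' deposited results were above 0 for Atg12 (0.10), Atg3 (9e-04), Atg4b (0.42) and Becn1 (0.14). Members called in neither of the settings compared turned as well: 8, 9, 9 and 7 of the 32 under these 4 settings. Map1lc3a and Rb1cc1 kept their direction and call in all 24 alternatives, Ulk2 in 22 of 22 and Dhx16 in 23 of 23.

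With each library left out in turn, 21 to 23 members were tested, Atg9a in only 5 of these fits. Of these, 12 to 14 were called lower and 0 higher, and of the pathway genes 18 to 25 lower and 2 to 3 higher. Among all tested genes 25.1% to 32.8% were then lower and 18.1% to 24.2% higher. The change of Dhx16 ran from -0.87 to -0.72. In the wider fit 18 to 21 of 32 members were called lower and 0 higher, against 30.6% to 36.8% and 11.3% to 15% of all genes. Atg12 lost its call without WT4, CKO7 or CKO13, and Atg14 without WT4, WT5 or CKO8. No paired analysis was possible because the library columns carry the numbers 2 to 6 and 7 to 13, which the groups do not share and which are not those of the titles.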

Other observations

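Across the 32 members of the wider fit, Spearman's rho of the log2 change was 0.087 with gene span, 0.058 with the number of exons and 0.135 with transcript length. Across all 13448 genes of that fit the same values were -0.194, -0.065 and -0.182. The difference between these sets was not tested, and genes share libraries and are not independent replicates. By mean FPKM, Gabarap stood at rank 4 of the 33 members in control and at rank 2 in knockout libraries, and it was the first of all members in CKO8 and CKO9. Atg7 moved from rank 13 to rank 16, and Rb1cc1 from rank 11 to rank 13. Wipi2 moved from rank 12 to rank 10.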
